A study of Homo sapiens with 4 samples.

Results

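The nuclear-encoded genes of oxidative phosphorylation were examined in SUM149, an inflammatory breast cancer cell line, before and during treatment with Ricolinostat (ACY1215), an inhibitor of the deacetylase HDAC6. Genes were chosen by name alone: symbols that begin with NDUFA, NDUFB, NDUFC, NDUFS, NDUFV, UQCR, COX4, COX5, COX6, COX7, COX8 or ATP5, together with SDHA, SDHB, SDHC, SDHD and CYC1. This gave 99 symbols, of which 2 pseudogenes were left out, so that 97 of the 34755 gene symbols on the array remained. Of these, 84 encode subunits or tissue isoforms of the 5 complexes: 37 of complex I, 4 of complex II, 9 of complex III, 18 of complex IV and 16 of complex V. The remaining genes share only the name pattern and comprise 7 assembly factors of complex I (NDUFAF1 to NDUFAF7), 3 antisense RNAs, and ATP5S, ATP5SL and NDUFA4L2.

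RNA was measured on 4 two-colour Agilent arrays with 1 array per condition, namely untreated cells and cells exposed to 2.5 uM Ricolinostat for 3, 6 or 12 h. Cells had been seeded in plates the day before, and no vehicle-treated culture was analysed here, so that time in culture and drug cannot be told apart. The Cy5 channel carried the sample and the Cy3 channel a reference that the labels describe as pooled from the SUM149 conditions. There was no replicate, so no test was possible and every value below is a description of these 4 arrays, whose number limits its precision. Whole-culture RNA was hybridised and each array was normalized, so values are relative to the other transcripts on it. Neither cell number nor total RNA per cell can be read from them.

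In the inner mitochondrial membrane, complexes I and II pass electrons from NADH and succinate to ubiquinone, complex III passes them on to cytochrome c, and complex IV transfers them to oxygen, while complex V uses the resulting proton gradient to make ATP. Most subunits are encoded in the nucleus, made on cytosolic ribosomes and imported, whereas a small core set is encoded by the mitochondrial genome, and the products of both genomes are assembled together. Nuclear respiratory factors (NRF1 and GABP), the estrogen-related receptors and the PGC-1 family of coactivators are known regulators of these nuclear genes.

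The array type held 62976 spots, of which 2075 were controls, and a typical spot was dim, with array medians of 36 to 40 in Cy5 over a background of 24. The epithelial markers EPCAM, CDH1, KRT5, KRT6A, KRT14, KRT17, KRT8, KRT18 and EGFR were well above background on all 4 arrays, whereas COL3A1 and HBB, markers of fibroblasts and red cells, were above background on no array. Of 3 hormone and growth factor receptors, ESR1 and ERBB2 were above background on all 4 arrays and PGR on none. ESR1 and ERBB2 were dim, with raw Cy5 signals of 199 and 253.2 in untreated cells. The paper lists SUM149 as negative for all 3 receptors. Further markers of blood, vessel, fibroblast and liver cells (PTPRC, PECAM1, CD3E, COL1A1 and ALB) were above background on all 4 arrays but dim, with raw Cy5 signals of 41.5 to 349 in untreated cells, and their part in the results was not tested. Areas in which the Cy3 signal was disturbed or spots were set aside by the scanner software covered 3.38% of spots on the untreated array, 4.74% on the 3 h array, 0.199% on the 6 h array and 0.00821% on the 12 h array. Of the 97 genes, 6 lay in such an area of the untreated array, 8 in one of the 3 h array and 0 in one of the 6 h or 12 h array. The error of a change was taken from 300 probes printed at 9 or more places on the array. The SD of their log2 ratio change between spots was 0.15 at 3 h, 0.12 at 6 h and 0.12 at 12 h, and that of Cy5 alone was 0.17, 0.09 and 0.10. This technical SD covers spotting and position and not the difference between cultures.

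Promoter sequences were examined first, since these genes share known regulators. RefSeq (GRCh38.p14) promoters were matched for 79 of the 97 genes and 68 of the 84 subunits, and the 250 bases before the transcription start were searched on both strands for the NRF1 motif GCGCANGC (N is any base), the GABPA/ETS motif CCGGAAGT, the estrogen-related receptor motif AAGGTCA, the YY1 motif AAGATGGCG and the cAMP response element TGACGTCA. The promoters shown are those of the subunit gene with the largest 12 h increase in ratio (COX7A2L), 2 genes of complex II (SDHA and SDHD) and the subunit with the lowest 12 h value (UQCRFS1). Capitals mark motif matches, and each sequence runs 5′ to 3′ towards the start site. The SDHA sequence lies at chr5:218070-218319, plus strand, that of SDHD at chr11:112086623-112086872, plus strand, that of UQCRFS1 at chr19:29213152-29213401, minus strand, and that of COX7A2L at chr2:42361218-42361467, minus strand.
SDHA: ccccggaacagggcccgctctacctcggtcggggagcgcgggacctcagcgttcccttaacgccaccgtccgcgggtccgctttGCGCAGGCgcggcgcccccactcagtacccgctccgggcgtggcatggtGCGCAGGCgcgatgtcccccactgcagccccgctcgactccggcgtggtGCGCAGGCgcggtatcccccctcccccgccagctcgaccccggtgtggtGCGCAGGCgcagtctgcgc
SDHD: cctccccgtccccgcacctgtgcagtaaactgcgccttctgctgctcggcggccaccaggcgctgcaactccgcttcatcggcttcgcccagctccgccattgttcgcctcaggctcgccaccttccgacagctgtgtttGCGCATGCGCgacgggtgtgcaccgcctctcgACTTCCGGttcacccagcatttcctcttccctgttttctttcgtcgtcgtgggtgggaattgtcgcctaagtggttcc
UQCRFS1: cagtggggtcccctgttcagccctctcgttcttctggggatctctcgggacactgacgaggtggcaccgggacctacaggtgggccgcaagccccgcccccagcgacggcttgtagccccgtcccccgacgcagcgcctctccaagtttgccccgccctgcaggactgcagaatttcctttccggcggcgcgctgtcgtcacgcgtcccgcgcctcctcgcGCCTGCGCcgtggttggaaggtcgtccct
COX7A2L: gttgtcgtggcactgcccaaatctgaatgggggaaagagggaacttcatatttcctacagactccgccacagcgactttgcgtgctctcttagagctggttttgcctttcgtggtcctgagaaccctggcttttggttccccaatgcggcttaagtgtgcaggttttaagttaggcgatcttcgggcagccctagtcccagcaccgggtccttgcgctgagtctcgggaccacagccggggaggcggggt
SDHA held 4 matches of the NRF1 motif, SDHD a pair of overlapping NRF1 matches on opposite strands and 1 GABPA/ETS match, and UQCRFS1 1 NRF1 match. None of these letters occurred in the COX7A2L window, which says nothing about the factors themselves.

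An NRF1 match was present in 28 of 68 subunit promoters (41.2%), against 10.9% of all 27305 promoters of the same length. The GABPA/ETS motif was found in 13.2% of subunit promoters and 3.64% of all, the estrogen-related receptor motif in 7.35% and 3.46%, the cAMP response element in 5.88% and 1.77%, and the YY1 motif in 1.47% and 0.641%. At least 1 of the 5 motifs was found in 39 of 68 subunit promoters (57.4%) and in 18.7% of all promoters. Matches of different motifs shared a base in 0 of the subunit promoters. Subunits with and without an NRF1 match had medians close to each other after treatment, with median log2 ratio changes from untreated of 0.07 (n = 25) and 0.03 (n = 38) at 3 h, 0.00 and -0.02 at 6 h, and 0.05 and 0.04 at 12 h. This comparison covers only part of the 68 subunits, since genes without a value and those of 1 chromosome were left out.

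As a group, oxidative phosphorylation genes lay close to their untreated values on all treated arrays. Both channels were well above background on all 4 arrays for 94 of 97 genes, and 88 of these 94 were brighter than the median gene measured. A change from untreated could be computed for 91 genes at 3 h, 90 at 6 h and 91 at 12 h. The median change of log2(Cy5/Cy3) from untreated was 0.04 at 3 h, -0.01 at 6 h and 0.03 at 12 h, against 0.01, 0.02 and 0.01 over all genes. With median centring of each array in place of the intensity-dependent loess correction, the medians were 0.10, -0.26 and -0.40, against 0.14, -0.16 and -0.30 over genes brighter than the median gene, and the medians of complexes I and IV at 12 h were then -0.42 and -0.38. At 12 h the changes of individual genes ran from -0.46 to 0.68. The share of genes below untreated stayed near the background at each time: 38 of 91 genes at 3 h (48.6% of all genes), 50 of 90 at 6 h (47.2% of all genes) and 43 of 91 at 12 h (47.5% of all genes).

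**Figure D1:**
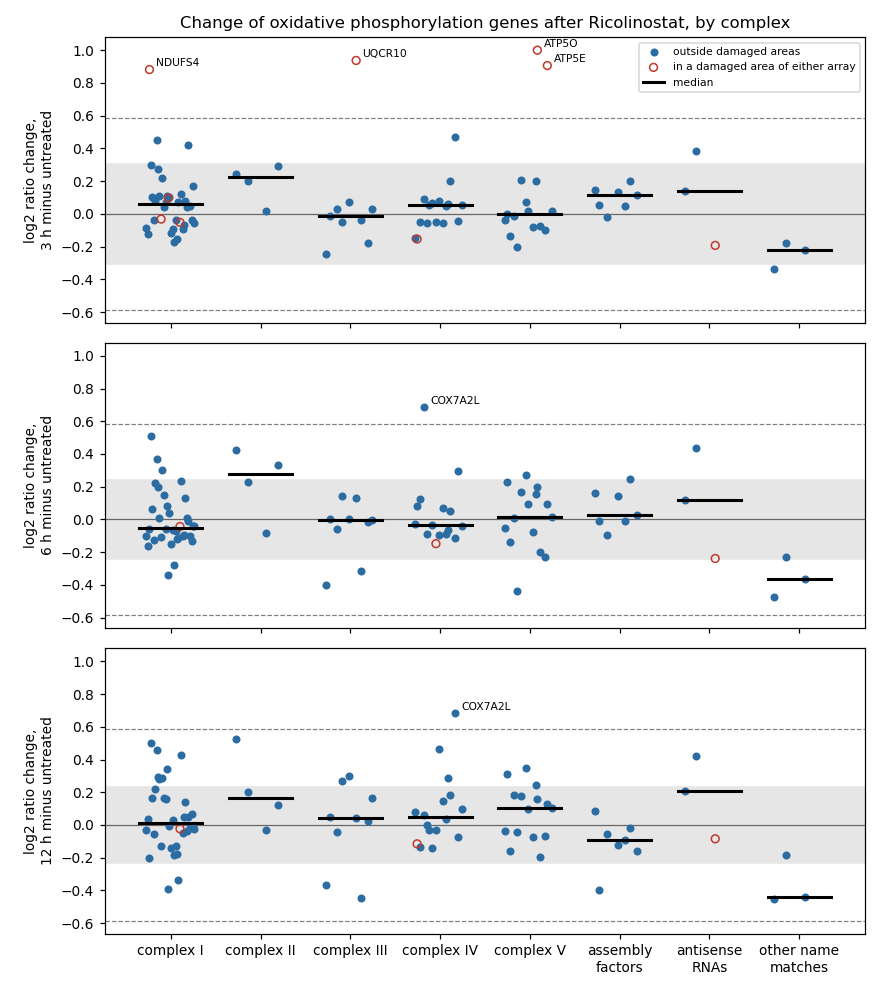
Change of log2(Cy5/Cy3) from untreated (vertical axis, log2) for each gene at 3, 6 and 12 h, by complex; bars are medians, the grey band is 2 technical SDs to each side of 0, dashed lines are 1.5-fold, and open symbols lie in a damaged area of either array. Most genes lie in the band, the 4 genes above 1.5-fold at 3 h are all open symbols, and COX7A2L is the only gene above the line at 6 and 12 h.

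Few genes passed 1.5-fold, the threshold used here to count a change. At 3 h 4 of 91 genes were higher (6.87% of all genes) and 0 were lower (1.96% of all genes). At 6 h 1 of 90 was higher (9.4% of all genes) and 0 were lower (4.42% of all genes), and at 12 h 1 of 91 was higher (8.1% of all genes) and 0 were lower (5.13% of all genes). Each gene was counted by its brightest probe. Further probes of ATP5S (-0.60 and -0.68) and NDUFB2-AS1 (-0.83 and -0.85) were past 1.5-fold lower at 6 and 12 h. The plot by complex shows the same changes gene by gene, with most points inside 2 technical SDs. Within that band lay 82 of 91 genes at 3 h (75.1% of all genes), 73 of 90 at 6 h (58.5%) and 67 of 91 at 12 h (58.1%). With damaged areas left out these were 77 of 82, 70 of 87 and 64 of 88 genes, against 77.2%, 59.0% and 58.5% of all genes.

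The spread of changes within the group was also narrow. The interquartile range of the log2 ratio change was 0.17 at 3 h, 0.23 at 6 h and 0.25 at 12 h, against 0.32, 0.38 and 0.37 over all genes and 0.42, 0.53 and 0.53 over genes brighter than the median gene. The 79 cytosolic ribosomal protein genes, another set of abundant housekeeping transcripts, had interquartile ranges of 0.13, 0.18 and 0.22. These ranges are set side by side as a description, and the difference between the groups was not tested.

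On the Cy5 channel alone, which leaves out the reference, the medians were again small, but the 1.5-fold counts at 3 h went the other way. The median change from untreated was -0.03 at 3 h, -0.07 at 6 h and -0.01 at 12 h, against 0.01, -0.02 and -0.01 over all genes. No gene was at least 1.5-fold higher at 3 h (5.59% of all genes) and 5 of 91 were lower (4.14% of all genes). At 6 h 1 of 90 was higher (8.68% of all genes) and 0 were lower (5.71% of all genes), and at 12 h 1 of 91 was higher (7.34% of all genes) and 1 was lower (6.55% of all genes). Within 2 technical SDs of Cy5 lay 76 of 91 genes at 3 h (76.8% of all genes), 60 of 90 at 6 h (49.5%) and 61 of 91 at 12 h (53.2%). Against the reference, whose content is known here only from the labels, Cy3 was at least 2-fold above Cy5 on all 4 arrays for NDUFS6, COX6C and ATP5G2 (7.36% of all genes), and Cy5 at least 2-fold above Cy3 for SDHB and NDUFAF5 (4.24% of all genes). The gene higher at 6 and 12 h was COX7A2L on both scales, and the gene lower at 12 h was ATP5SL.

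The 4 genes past 1.5-fold at 3 h were NDUFS4, an accessory subunit of complex I, UQCR10, a small subunit of complex III, ATP5E, the epsilon subunit of the ATP synthase, and ATP5O, which joins its stalk to its catalytic head. Their spots all lay in damaged areas of the 3 h array. The ATP5O log2 ratio was -0.70 untreated, 0.30 at 3 h, -0.50 at 6 h and -0.54 at 12 h, so that the 2.0-fold higher value at 3 h stood alone. From untreated to 3 h its Cy5 signal changed by -0.99 and its Cy3 signal by -1.99 on the log2 scale. The log2 ratios of NDUFS4 at 0, 3, 6 and 12 h were -0.09, 0.80, -0.14 and -0.29. Those of UQCR10 were 0.27, 1.21, 0.40 and 0.31, and those of ATP5E were 0.44, 1.34, 0.53 and 0.56, so that in each gene the 3 h array alone was high. In each case both channels were low at 3 h, with Cy5 changes of -0.98, -1.23 and -1.07 and Cy3 changes of -1.87, -2.17 and -1.97. Other probes of the same genes, outside the damaged areas, changed by 0.09 for ATP5E and by 0.16 and -0.12 for UQCR10 at 3 h. With damaged areas left out, 0 genes passed 1.5-fold at 3 h.

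Among all 91 genes, Cy3 was at least 1.5-fold lower at 3 h in 9 (3.96% of all genes), of which 4 lay outside the damaged areas (NDUFA12, NDUFA6, SDHA and ATP5G3, named after their values were seen), and in 0 genes at 6 h (0.0442% of all genes) or 12 h (0.0391%). The part of this in the 3 h values was not tested.

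**Figure D2:**
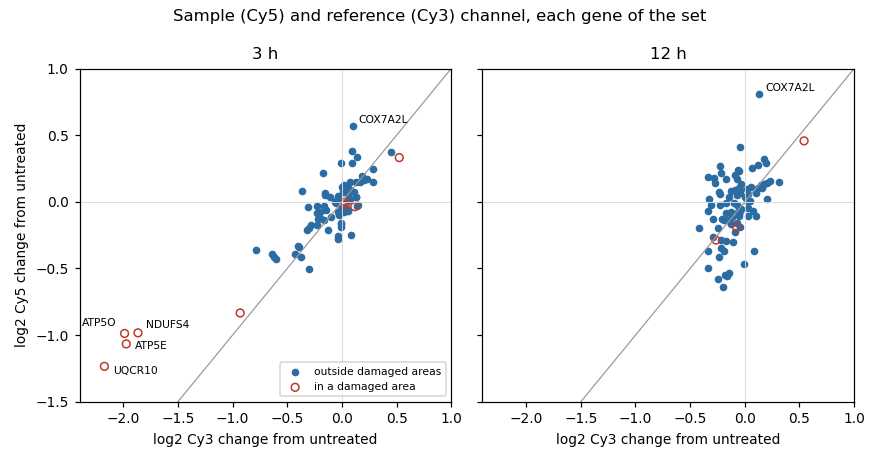
Change of Cy5 (vertical axis, log2) against change of Cy3 (horizontal axis, log2) from untreated for each gene at 3 h (left) and 12 h (right); the line marks equal change, and open symbols lie in a damaged area of either array. At 3 h the 4 labelled genes with the lowest Cy3 change are all open symbols, and COX7A2L stands above the line at both times.

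As the plot of both channels shows, COX7A2L was higher in Cy5 with Cy3 changes of 0.10, 0.07 and 0.13 at 3, 6 and 12 h. COX7A2L, also known as SCAF1, is a relative of the COX7A subunits known for joining complexes III and IV into supercomplexes. Its log2 ratio was 0.11 in untreated cells, 0.58 at 3 h, 0.80 at 6 h and 0.79 at 12 h, so that all 3 treated arrays lay above untreated and the level did not move between 6 and 12 h. The changes from untreated were 0.47, 0.69 and 0.68, or 1.61-fold at 12 h, and Cy5 alone changed by 0.57, 0.76 and 0.81. A second probe gave smaller ratio changes of 0.28, 0.46 and 0.47, and Cy5 changes of 0.56, 0.66 and 0.81. The third probe was well above background on no array. Under the 8 combinations of background correction, normalization and channel compared here the 12 h change ran from 0.29 with median centring to 0.89 with the scanner software's processed signals.

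In complex I, the entry point of electrons from NADH, the median log2 ratio change of 34 measured subunits was 0.06 at 3 h, -0.05 at 6 h and 0.01 at 12 h. The highest 12 h value was that of NDUFA2, an accessory subunit of the matrix arm, with log2 ratios of -0.32, -0.03, 0.18 and 0.18 at 0, 3, 6 and 12 h. Its changes of 0.30, 0.51 and 0.50 were above 0 in all 8 settings, although with median centring only 0.08 remained at 12 h. NDUFC2, a membrane-arm subunit, showed opposite values on its 2 probes, with ratio changes of 0.45, 0.37 and 0.46 on the brighter probe and -0.08, -0.05 and -0.36 on the other, so no direction is given for it. NDUFA8, NDUFA9 and NDUFS3 had no value on the untreated array, where their spots were set aside, and between 6 and 12 h they changed by -0.15, -0.16 and -0.09.

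Of the 10-spot probes on the array, NDUFS5 and NDUFS6 of complex I, UQCRC2 of complex III, COX7C of complex IV and ATP5SL belonged to the group and give a direct measure of spot error. At 12 h NDUFS5 changed by -0.03 ± 0.07 (SD, n = 7 spots) and UQCRC2, a core protein of complex III, by 0.05 ± 0.07 (n = 8 spots). COX7C changed by -0.11 ± 0.13 (n = 9 spots) and NDUFS6 by -0.13 ± 0.06 (n = 8 spots). Single spots of NDUFS5, UQCRC2 and COX7C lay on both sides of 0 at 12 h, whereas those of NDUFS6 and ATP5SL were all below it. These values are log2 ratios, and Cy5 alone was lower for each of these genes. At 12 h Cy5 changed by -0.22 ± 0.04 for NDUFS5 and -0.17 ± 0.05 for UQCRC2 (SD over the same spots). It changed by -0.21 ± 0.09 for COX7C, -0.22 ± 0.11 for NDUFS6 and -0.62 ± 0.03 for ATP5SL.

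Complex II, the succinate dehydrogenase that also serves the tricarboxylic acid cycle, was the complex with the highest medians: 0.22 at 3 h, 0.28 at 6 h and 0.16 at 12 h over its 4 genes, and 0.22, 0.15 and 0.09 on Cy5 alone. With median centring the 12 h median was -0.23, so its 12 h direction depends on the scaling. SDHD, a membrane anchor, had log2 ratios of 0.12, 0.42, 0.46 and 0.25 at 0, 3, 6 and 12 h, a value that was high at 3 and 6 h and lower again at 12 h. All 3 of its probes showed this, with changes of 0.27 to 0.34 at 3 h, 0.33 to 0.55 at 6 h and 0.08 to 0.19 at 12 h, although the 12 h change was -0.25 with median centring.

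SDHA, the catalytic flavoprotein, had log2 ratios of -0.40, -0.15, 0.02 and 0.12. Its changes of 0.25, 0.42 and 0.52 came with Cy3 changes of -0.64, -0.30 and -0.33, and Cy5 alone changed by -0.39, 0.12 and 0.19. Its 4 probes disagreed in sign at 3 h (-0.18 to 0.25) and at 6 h (-0.13 to 0.42) and were all above untreated at 12 h (0.12 to 0.52). SDHC, the other membrane anchor, had log2 ratios of -0.53, -0.33, -0.30 and -0.33, and its 3 measured probes disagreed in sign at 12 h (0.20, 0.17 and -0.25), as did median centring of the first (-0.20). SDHB, the iron-sulfur subunit, stayed at 1.46, 1.48, 1.38 and 1.43 on all 4 arrays, with a 12 h change of -0.03.

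Complex III differed between scales. Its 9 genes had median ratio changes of -0.02, -0.01 and 0.04, whereas on Cy5 alone the medians were -0.19, -0.15 and -0.13. On Cy5 alone the brightest probes of 9 of 9 genes were below untreated at 6 h (52.8% of all genes), and 5 of the 9 lay within 2 technical SDs. Second probes of UQCRH and UQCRB were above untreated there, with Cy5 changes of 0.22 and 0.28. Those of UQCR10 were below it, at -0.13 and -0.02. With median centring the 12 h ratio median of the complex was -0.43. Lower values on both scales were seen for CYC1 and UQCRFS1, which carry the heme of cytochrome c1 and the Rieske iron-sulfur centre, the redox centres through which electrons leave the complex. The CYC1 log2 ratio was 1.01 untreated and 0.77, 0.61 and 0.64 at 3, 6 and 12 h, so that every treated array was below untreated. Its changes were -0.24, -0.40 and -0.37, and those of Cy5 alone -0.28, -0.43 and -0.55. UQCRFS1 had log2 ratios of 0.91, 0.87, 0.59 and 0.46, with changes of -0.04, -0.32 and -0.45. Its Cy5 alone changed by -0.42, -0.30 and -0.37, lowest at 3 h, so that the order over time differed between the scales. Both genes were below untreated at 6 and 12 h in all 8 settings, and each was measured by 1 probe. UQCRC1, a core protein, had the highest 12 h change of the complex (0.30), with log2 ratios of 0.43, 0.51, 0.43 and 0.73, so that only the 12 h array stood out, and with median centring its 12 h change was -0.09.

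**Figure D3:**
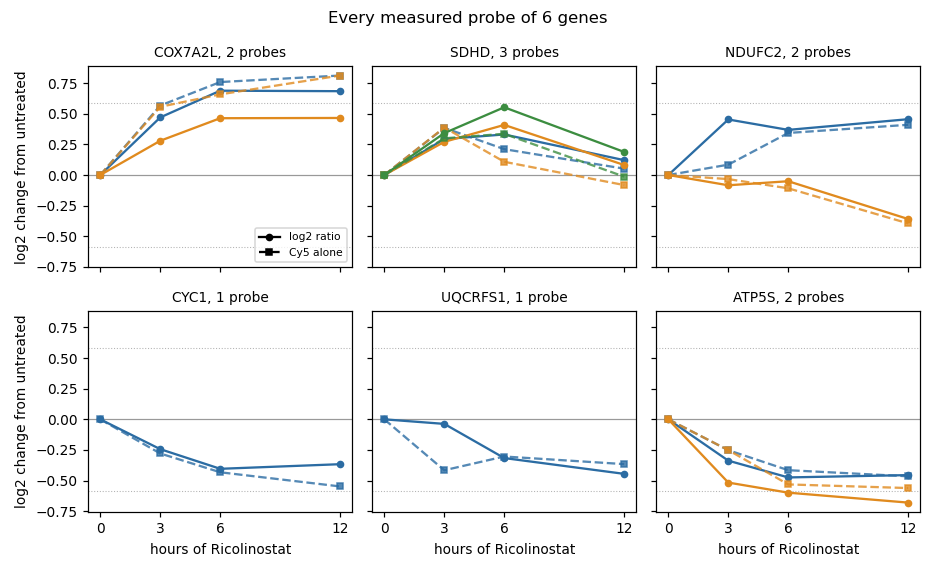
Change from untreated (vertical axis, log2) against hours of Ricolinostat for every measured probe of 6 genes; colours are probes, solid lines the log2 ratio, dashed lines Cy5 alone, and dotted lines 1.5-fold. Probes of COX7A2L, SDHD and ATP5S run alike, and those of NDUFC2 run in opposite directions.

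The plot of single probes sets these genes side by side, with the agreement or disagreement of their probes. Of 25 genes with at least 2 measured probes, all probes shared a sign in 9 at 3 h, 14 at 6 h and 14 at 12 h, and the probes lay within 2 technical SDs of each other in 18, 16 and 17. Probes disagreed in sign at 12 h for NDUFA12, NDUFB5 and NDUFC2 of complex I, SDHC of complex II, UQCR10 and UQCRB of complex III, COX5A, COX6B2 and COX8A of complex IV, ATP5E of complex V and the antisense RNA NDUFA6-AS1. Small changes of either sign in genes with 1 probe are therefore not resolved.

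Complex IV, the terminal oxidase, exists with tissue-specific isoforms, and the array has probes annotated to several of them. Whether these probes tell related isoforms apart was not tested. The median ratio change of complex IV was 0.05 at 3 h, -0.03 at 6 h and 0.05 at 12 h. Among the widely expressed forms, COX4I1 had log2 ratios of 0.06, -0.09, 0.03 and 0.14 at 0, 3, 6 and 12 h, and COX7A2 of -0.47, -0.39, -0.41 and -0.41. COX6B1 had values of -0.28, -0.08, -0.16 and -0.10, and COX7B of 0.75, 0.70, 0.64 and 0.72. NDUFA4, once counted in complex I and now known as a complex IV subunit, had values of -0.78, -0.73, -0.85 and -0.82. For all of these the 12 h change was below 2 technical SDs. COX6A1 went from 0.01 to 0.09, 0.31 and 0.47, a 12 h change of 0.46, but Cy5 alone changed by 0.18 and with median centring the change was -0.07. COX8A had values of 0.34, 0.40, 0.42 and 0.63, with its second probe at -0.16 at 12 h.

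The restricted isoforms were near or below the detection limit. COX7B2 and COX8C, known from testis, were above background on no array, with log2 ratios of -0.20, -0.21, -0.17 and -0.06 and of -1.02, -1.02, -0.85 and -0.87 that have no order. COX4I2, the lung form, was detected on 3 of 4 arrays with raw Cy5 signals of 29 to 38, and its log2 ratios were 0.03, 0.08, 0.00 and 0.06. The muscle forms COX6A2 and COX7A1 were detected at raw Cy5 signals of 44 to 53 and 33 to 36, with log2 ratios of 0.07, 0.02, -0.02 and -0.07 and of 0.14, 0.08, 0.09 and 0.28. COX6B2, another form known from testis, was clearly detected at raw Cy5 signals of 2092 to 2999. Its log2 ratios of -0.77, -0.70, -0.72 and -0.91 gave the lowest 12 h change of the complex (-0.14), with the other probe at 0.22. NDUFA4L2, a relative of NDUFA4 known as a hypoxia-induced gene, was near the limit at raw signals of 34 to 40.5, with log2 ratios of -0.64, -0.81, -0.87 and -0.82.

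Complex V, the ATP synthase, had median ratio changes of 0.00, 0.02 and 0.10 over 15 measured genes, and the 12 h median was -0.38 with median centring. ATP5L, subunit g of the membrane part, had the highest 12 h change (0.35), from log2 ratios of -0.34, -0.27, -0.07 and 0.01. On Cy5 alone it changed by 0.02 at 12 h, while Cy3 changed by -0.33, and with median centring the ratio change was -0.19. The paralogs ATP5G1, ATP5G2 and ATP5G3 encode the same mature c subunit of the rotor. ATP5G1 had log2 ratios of 0.16, 0.02, 0.02 and 0.00, ATP5G2 of -1.13, -1.20, -1.32 and -1.32, and ATP5G3 of 0.71, 0.92, 0.88 and 0.89. ATP5G2 had the lowest 12 h change of the complex (-0.19), and ATP5G3 changed by 0.18, or -0.35 with median centring. ATP5D, the delta subunit, named after its values were seen, had log2 ratios of 0.55, 0.34, 0.11 and 0.50, so that the 6 h array was low and the 12 h array close to untreated. ATP5B, the catalytic beta subunit, had no untreated value and changed by 0.09 between 6 and 12 h.

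The assembly factors NDUFAF1 to NDUFAF7, which build complex I without staying in it, had lower values on the 12 h array than on the 6 h array. Their median ratio change was 0.11 at 3 h, 0.02 at 6 h and -0.09 at 12 h, with 6 of 7 below untreated at 12 h (47.5% of all genes). At 12 h 6 of 7 also lay within 2 technical SDs (58.1% of all genes), and on Cy5 alone 5 of 7 were below untreated (51.2% of all genes). Between 6 and 12 h the median was -0.18 and 6 of 7 were lower (51.4% of all genes). For structural subunits the median between these arrays was 0.04 with 24 of 81 lower, and the difference was not tested. NDUFAF6, needed for the membrane arm, had log2 ratios of 0.42, 0.48, 0.41 and 0.03, with only the 12 h array low. Its 12 h change was -0.39 on either of its 2 probes and -0.55 and -0.53 on Cy5 alone.

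ATP5S and ATP5SL carry names of the ATP synthase but are not structural subunits. ATP5S is known as coupling factor B and now named DMAC2L. Among the brightest probes of each gene it had the lowest ratio change of the whole set at each time. It did not have the lowest change on Cy5 alone at 12 h (-0.46, against -0.64 for ATP5SL). A second probe of NDUFB2-AS1 gave lower ratio changes, -0.52, -0.83 and -0.85. The ATP5S log2 ratios were 1.19, 0.85, 0.72 and 0.74. Its ratio changes from untreated were -0.34, -0.47 and -0.46, and a second probe gave -0.52, -0.60 and -0.68, so that every treated array was below untreated on both probes. ATP5SL, now named DMAC2 and known as an assembly factor of complex I, had log2 ratios of -0.13, -0.35, -0.49 and -0.57. Over repeated spots its change was -0.22 ± 0.06 at 3 h, -0.37 ± 0.09 at 6 h and -0.46 ± 0.05 at 12 h (SD, n = 8 spots), with every spot below untreated, and Cy5 alone changed by -0.64 at 12 h. Both genes were below untreated in all 8 settings. Of the antisense RNAs, NDUFV2-AS1 had log2 ratios of -0.39, 0.00, 0.05 and 0.03 at raw Cy5 signals of 66.5 to 86, and NDUFB2-AS1 gave 12 h ratio changes of -0.08 and -0.85 on its probes. On Cy5 alone these were 0.46 and -1.13, of opposite sign, and the first probe was in one of the untreated array's damaged areas.

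The share of genes on one side of untreated over the whole course was close to that of all genes. All 3 treated arrays were above untreated for 31 of 90 genes with values on every array (34.4%, against 36.1% of all genes) and below it for 27 (30.0%, against 31.6%). Cy5 alone had the same direction at every time in 12 of the 31 and 16 of the 27. Changes of more than 2 technical SDs at 6 and 12 h with Cy5 in the same direction were left for 7 higher genes (ATP5L, COX6A1, COX7A2L, NDUFA2, NDUFA5, NDUFC2 and NDUFV2-AS1) and 4 lower genes (ATP5S, ATP5SL, CYC1 and UQCRFS1). These are 7.78% and 4.44% of 90 genes, against 3187 (16%) and 2271 (11.4%) of 19891 genes in all under the same rule. Of the 7, ATP5L, COX6A1 and NDUFA5 turned below untreated with median centring at 12 h, and NDUFC2 had a second probe in the opposite direction.

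The pair of arrays with the least damage, 12 h against 6 h, measured 94 genes. The median change was 0.03, against -0.01 over all genes, and 87 of 94 genes were within 2 technical SDs (78.7% of all genes). The technical SD used here was that of 12 h against untreated, as none was computed for this pair. No gene was 1.5-fold higher (0.473% of all genes) or lower (1.16% of all genes), and the range was from -0.39 (NDUFAF6) to 0.39 (ATP5D). The interquartile range was 0.12, against 0.23 over all genes.

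The genes around the respiratory chain were counted in the same way. Its mitochondrially encoded subunits, a list added after the data had been opened, showed lower values early. Of 11 on the array, 10 were measured against untreated, with median ratio changes of -0.64 at 3 h, -0.38 at 6 h and -0.16 at 12 h, and on Cy5 alone of -0.61, -0.45 and -0.21. They were below untreated in 10 of 10 genes at 3 h (48.6% of all genes), 10 of 10 at 6 h (47.2%) and 7 of 10 at 12 h (47.5%). They were at least 1.5-fold lower in 6 (1.96% of all genes), 3 (4.42%) and 0 (5.13%). The medians were below 0 in all 8 settings at each time, and none of the 10 lay in a damaged area. ND5, a core proton-pumping subunit of complex I, changed by -0.91, -0.91 and -0.38. COX2, the subunit of complex IV that accepts electrons from cytochrome c, changed by -0.76, -0.29 and 0.21, and ND6, the gene with the largest 12 h change, by -0.62, -0.50 and -0.55. Nuclear-encoded structural subunits had medians of 0.04, -0.03 and 0.05 on the same arrays. These transcripts come from a few polycistronic RNAs and are not independent of each other, and their difference from the nuclear genes was not tested.

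**Figure D4:**
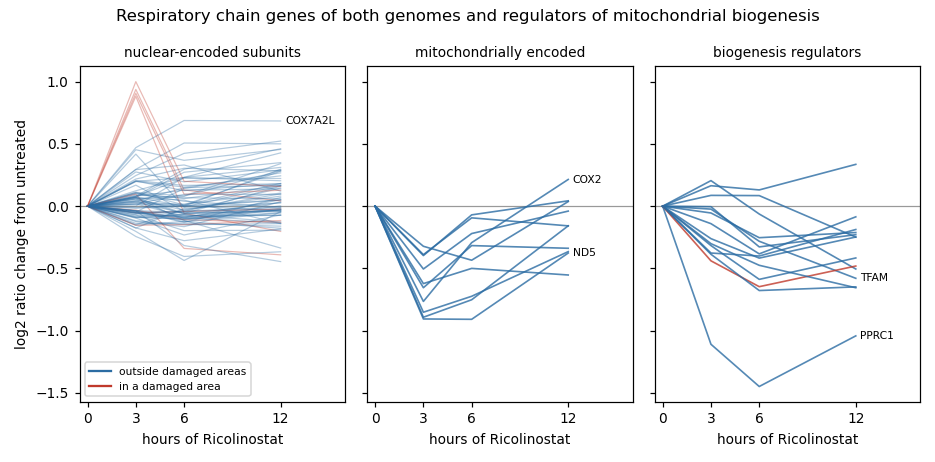
Change of log2(Cy5/Cy3) from untreated (vertical axis, log2) against hours of Ricolinostat, 1 line per gene measured on all 4 arrays, for nuclear-encoded subunits, mitochondrially encoded subunits and regulators of mitochondrial biogenesis; red lines lie in a damaged area of any array. The mitochondrially encoded lines all lie below 0 at 3 and 6 h, nuclear-encoded lines spread around 0, and PPRC1 is the lowest regulator.

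The plot of both genomes also shows the regulators of mitochondrial biogenesis, 15 of which were on the array. Of 14 measured, 11 were below untreated at 3 h (48.6% of all genes), 12 at 6 h (47.2%) and 13 at 12 h (47.5%). Their medians were -0.20, -0.39 and -0.33, and the medians were below 0 in all 8 settings, at -0.13, -0.33 and -0.38 on Cy5 alone. PPRC1, a coactivator of the PGC-1 family, had the largest changes, -1.11, -1.45 and -1.04. NRF1 changed by -0.38, -0.40 and -0.19, GABPA by 0.00, -0.33 and -0.23, and its partner GABPB1 by -0.32, -0.59 and -0.42. The estrogen-related receptors ESRRA and ESRRG changed by -0.26, -0.42 and -0.25 and by -0.14, -0.38 and -0.09, YY1 by -0.05, -0.25 and -0.21, and the coactivator PPARGC1B by 0.09, 0.08 and -0.25. PPARGC1A, the namesake of the family, was not well above background in untreated cells and was detected on each treated array. Its normalized log2 Cy5 signal was 5.83 untreated and 6.52, 6.66 and 6.57 at 3, 6 and 12 h. Against that undetected untreated signal it was 1.62-fold higher at 3 h, 1.78-fold at 6 h and 1.68-fold at 12 h.

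Factors that maintain and transcribe the mitochondrial genome had the following values. TFAM, which packages mitochondrial DNA, changed by -0.02, -0.28 and -0.58, and TFB2M, a transcription factor, by 0.21, -0.06 and -0.50, so both were lowest at 12 h. The RNA polymerase POLRMT, whose spot was in one of the untreated array's damaged areas, changed by -0.44, -0.65 and -0.48 (0.00, -0.30 and -0.13 on Cy5 alone), the helicase C10orf2 by -0.39, -0.68 and -0.65, and the DNA polymerase POLG by -0.30, -0.47 and -0.66. TFB1M, which modifies mitochondrial ribosomal RNA, was the exception with 0.16, 0.13 and 0.34.

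Mitochondrial ribosomal proteins, 75 of which were measured, had medians of -0.05, -0.09 and -0.13, with 52 below untreated at 12 h (47.5% of all genes). At 12 h 9 were at least 1.5-fold lower (5.13% of all genes) and 1 higher (8.1%), and the 12 h median was below 0 in all 8 settings. MRPL54 had the largest change of that list at 12 h (-1.35). Assembly factors outside the name rule had a 12 h median of 0.00 over 33 genes, of which 4 were at least 1.5-fold lower (5.13% of all genes) and 0 higher (8.1%). COA7, an assembly factor of complex IV, had the largest changes there, -1.24, -1.42 and -1.24. Further respiratory proteins outside the rule had a 12 h median of 0.03 over 9 genes, with DHODH, which feeds electrons from pyrimidine synthesis to ubiquinone, at -0.80. Genes of the tricarboxylic acid cycle had a 12 h median of 0.01 over 13 genes, with IDH3A, a subunit of isocitrate dehydrogenase, at 0.74. Glycolysis genes had a 12 h median of 0.18 over 21 genes, with ENO2, a neuronal enolase, at 1.22, and this median was -0.29 with median centring. Cytosolic ribosomal protein genes had a 12 h median of 0.05, with RPL27A at -0.97, and a median of -0.48 with median centring.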

How the data were processed

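RNA of SUM149 cells, untreated or after 3, 6 or 12 h of 2.5 uM Ricolinostat, was measured on 4 two-colour arrays, 1 per condition. The authors deposited, for each array, the scanner software's intensity of every spot in both channels with its local background, a log10 ratio of Cy5 over Cy3, and quality flags, and they deposited 1 table of normalized log2 ratios whose normalization is not given in the sources used here. Members and lists were chosen with earlier results of these data known, and the mitochondrially encoded list was added after the files had been opened.

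Median spot signals were background corrected by normexp (offset 50), outlier spots were set aside, and arrays were normalized by loess and Aquantile in limma 3.58.1 (R 4.3.3), with Python 3.11.15 and pandas 2.3.3 for the rest. Repeated spots were averaged, and each gene was read from its brightest probe by mean Cy3. Changes were computed only between arrays on which that probe exceeded background in Cy5 and Cy3. Damaged areas were places where, within 13 rows by 7 columns, 10% or more of spots were set aside or whose Cy3 was over 2-fold from the median of the arrays. A gene seen only after treatment was compared with the higher of its own untreated Cy5 signal and the lowest Cy5 signal of probes well above background on that array. For PPARGC1A its own untreated signal was the higher. The procedure was tested on simulated data.

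Values on every array are given for the highest and lowest 12 h change of each complex, genes past 2-fold, SDHA to SDHD, CYC1 and paralogous isoforms, and related lists are represented by their largest 12 h change and all regulators. Further genes were named after their values were seen, and 1 gene that the rule names is not reported here. Alternatives covered background correction, normalization, the channel and the deposited table (8 settings, the one above included), the background filter, how several probes are combined, damaged areas, membership and the fold threshold. No probe coordinates are given, and promoter coordinates are those of GRCh38.p14.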

Additional observations from a re-analysis of the deposited data

How the results depend on the processing

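The member median stayed within 1 technical SD of the reported value at 3, 6 and 12 h under every alternative except median centring, which gave -0.26 at 6 h and -0.40 at 12 h. Under that setting the median of all genes was -0.08 and -0.16, and that of genes brighter than the median gene -0.16 and -0.30. The technical SD is that of single spots and exceeds the reported medians, so the sign of these medians is not resolved. At 3 h the median was below 0 on Cy5 alone (-0.03), on quantile-normalized Cy5 (-0.04) and in the deposited table (-0.005), and above 0 otherwise. At 12 h it was also below 0 with offset 1 (-0.02), the deposited table (-0.05), Cy5 alone (-0.01), quantile-normalized Cy5 (-0.02) and the median over probes (-0.01). Loess without Aquantile gave the same ratios by construction and is not counted as a separate setting. Median centring left 0 members higher at least 1.5-fold at 6 and at 12 h, with 5 lower at 6 h and 11 lower at 12 h. At 3 h the count of 4 higher members became 0 on Cy5 alone, on quantile-normalized Cy5 and with damaged areas left out, and 1 at 2-fold, and both Cy5 settings gave 5 lower members. At 6 h the count of 1 higher member was 2 with a normexp offset of 1, which also gave 1 lower member, 2 with the processed signals of the scanner software, 2 with the deposited table, and 0 with the median over probes or at 2-fold. At 12 h the count of 1 was 3 with offset 1, 4 with the processed signals, 2 with the deposited table, and 0 with the median over probes or at 2-fold, and lower members numbered 1 on Cy5 alone and 3 on quantile-normalized Cy5. What causes these differences was not tested. With 1 array per condition, differences between cultures could not be measured, and members at the detection limit (COX4I2, COX6A2, COX7A1 and NDUFA4L2) have compressed changes because of the normexp offset. No paired analysis was possible because there is a single array at each time.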
